A study of Homo sapiens with 6 samples.

Results

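Heme is made from glycine and succinyl-CoA by a chain of enzymes that starts in the mitochondrion, passes through the cytosol and ends in the mitochondrion, where ferrochelatase inserts iron into protoporphyrin. The 9 genes described here are 8 enzymes of that chain (ALAS1, ALAS2, ALAD, UROS, UROD, CPOX, PPOX and FECH) and FLVCR1, a transporter known for heme export. They were taken by gene symbol, as members of the pathway, out of 46427 genes listed per library. The 8 enzymes do not cover every step of the chain.

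RNA of K562 cells, an established human leukemia line with erythroid features, was measured in 6 libraries. Wild-type cells were given 0.1% DMSO as vehicle (3 libraries) or 10 µM of the compound HR-19011 (3 libraries), both for 24 h. For the treated cells the labels state no DMSO percentage. Whether the 3 libraries of a group came from separate cultures is not stated, so each p-value reflects the spread of these samples alone, and that spread may be technical. The series title places HRI (encoded by EIF2AK1), an eIF2α kinase that heme is known to inhibit, upstream of the response to the compound. The comparison here asks how the transcripts of heme synthesis differed between treated and vehicle cells.

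Erythroid cells carry 2 forms of the first enzyme. ALAS1 is the form of all tissues and is known to be held down by heme itself, whereas ALAS2 is the erythroid form, switched on by GATA1 and limited in translation by iron-regulatory proteins when iron is scarce. FECH and the later mitochondrial enzymes are also known to be raised in red cell precursors.

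Values are FPKM, the authors' measure of transcript fragments per length and library size, so levels may be set side by side between genes. The deposited values hold no read counts, and sequencing depth is unknown. Summed FPKM lay between 456639 and 467595 in vehicle and between 420661 and 427819 in HR-19011 libraries, without overlap. All 7 K562 and erythroid markers looked at (HBG1, HBG2, HBZ, HBE1, GATA1, TFRC and EPOR) were listed at 5.49 FPKM or more in every library. All 7 were called lower in HR-19011 in the limma test described below, as were 38.0% of all tested genes. Their log2 fold changes ran from -1.80 (HBZ) to only -0.16 (TFRC). Of 12 markers of other cell types, 9 stayed under 1 FPKM in every library, MS4A1 and KRT5 being listed at 0 throughout. The other 3, CD3D, LYZ and EPCAM, were above that level, CD3D and LYZ higher and EPCAM lower in HR-19011, and the summed level of the 12 was 50.3 to 53.7 FPKM in vehicle and 45.2 to 47.2 FPKM in HR-19011. The part of these markers in the results was not tested. In bulk RNA, fewer cells of a type and less RNA per cell cannot be told apart.

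Promoter sequences show which of the genes carry letters recognised by the erythroid factors. Windows from 250 bases before to 50 bases after a gene's start were taken from RefSeq (GRCh38.p14) and matched 8 of the 9 genes by gene identifier, ALAD and PPOX with 2 starts each, and UROS was not among them. The GATA factor core GATAA, searched on both strands, was found for ALAS2, CPOX and PPOX, 3 of 8 genes, against 22.7% of all 35116 windows. For PPOX the match lay before the second start, not the first. ALAS2 and CPOX are printed because each holds 2 such matches before its start, in capitals (TTATC is GATAA on the other strand), and their transcripts moved in opposite directions as deposited. FECH is printed as the last enzyme, with no GATAA in its window, and its capitals mark the antioxidant element core TGACNNNGC on the other strand. The 250 bases before each start, on the minus strand of GRCh38, 5′ to 3′, lie at chrX:55030978-55031227 (ALAS2), chr3:98593612-98593861 (CPOX) and chr18:57586703-57586952 (FECH).
ALAS2: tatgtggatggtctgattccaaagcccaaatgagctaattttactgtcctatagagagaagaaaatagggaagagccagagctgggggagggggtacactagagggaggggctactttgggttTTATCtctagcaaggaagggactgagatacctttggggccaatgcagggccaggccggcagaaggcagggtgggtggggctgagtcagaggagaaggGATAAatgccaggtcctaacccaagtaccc
CPOX: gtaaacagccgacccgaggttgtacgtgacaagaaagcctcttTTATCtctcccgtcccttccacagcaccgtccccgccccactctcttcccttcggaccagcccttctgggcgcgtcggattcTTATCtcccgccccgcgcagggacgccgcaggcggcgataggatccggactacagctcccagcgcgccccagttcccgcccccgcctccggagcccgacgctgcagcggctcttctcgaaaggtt
FECH: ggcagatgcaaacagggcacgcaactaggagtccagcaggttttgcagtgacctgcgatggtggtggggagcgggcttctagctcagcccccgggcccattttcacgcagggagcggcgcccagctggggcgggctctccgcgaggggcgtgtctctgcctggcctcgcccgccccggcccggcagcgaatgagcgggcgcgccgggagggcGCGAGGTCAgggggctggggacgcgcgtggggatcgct

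The ALAS2 matches began 127 and 30 bases before the start, and those of CPOX 207 and 125 bases before it. ALAS2 also held the NF-E2 and AP-1 core TGAGTCA, 47 bases before its start, which 4.95% of all windows hold. It overlaps the ALAS2 match to TGACNNNGC, a core found in 13.3% of windows and in 2 of the 8 genes. The KLF factor core CACCC was found for 7 of the 8 genes, all but FECH, and in 59.9% of all windows. The C/EBP-ATF element TGATGNAA, the kind of site ATF4 is known to bind, was found in none of the 10 windows of these genes and in 3.62% of all windows. These matches are letters in a window and not sites shown to be bound.

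The 2 forms of the first enzyme carry different short elements around their starts. ALAS1 held 2 matches to the core motif bound by NRF1, a regulator of mitochondrial genes, which 5.78% of all windows hold. They lie across and just after its start, at chr3:52198068-52198089 and chr3:52198098-52198119 on the plus strand, with the core in capitals. ALAS2 held, in its first 50 transcribed bases at chrX:55030944-55030966 on the minus strand, the loop and upper stem of an iron-responsive element, with the loop in capitals. That pattern is CAGTG after a bulged C on the sense strand, with arms of 5 bases that pair. G-T pairs were allowed, and the ALAS2 match holds one. Searched only in the 50 transcribed bases of each window, the pattern was found in 8 of 35116 windows.
ALAS1 first match: cgcggcGCGCCTGCGCagaaga
ALAS1 second match: cccaagGCGCATGCGCagcggt
ALAS2 element: gttcgtcctCAGTGCagggcaac

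Along the pathway the transcripts did not move as a group: ALAD rose, UROD, CPOX and FECH fell, ALAS2 and PPOX rose slightly with FPKM as deposited but not after TMM scaling, and ALAS1, UROS and FLVCR1 did not pass the test as deposited. In limma's moderated test on log2(FPKM + 1) with Benjamini-Hochberg adjustment over 11856 tested genes, 3 of the 9 genes were higher and 3 lower at an adjusted p under 0.05. Of all tested genes 84.4% passed, 46.4% higher and 38.0% lower. All 9 genes passed the filter of a mean of at least 1 FPKM. Values of the groups did not overlap for 6 of the 9 genes, against 85.2% of all tested genes. Their log2 fold changes ran from -0.82 to 0.44 with a median that rounds to 0.00, beside a median of 0.07 over all tested genes. These fold changes are differences of log2(FPKM + 1), which for low genes are smaller than the change of mean FPKM. Only CPOX, 1 of the 9 genes, passed limma's test against a 1.5-fold change, and it was lower; of all tested genes 31.3% passed that test, 18.6% higher and 12.8% lower.

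**Figure D1:**
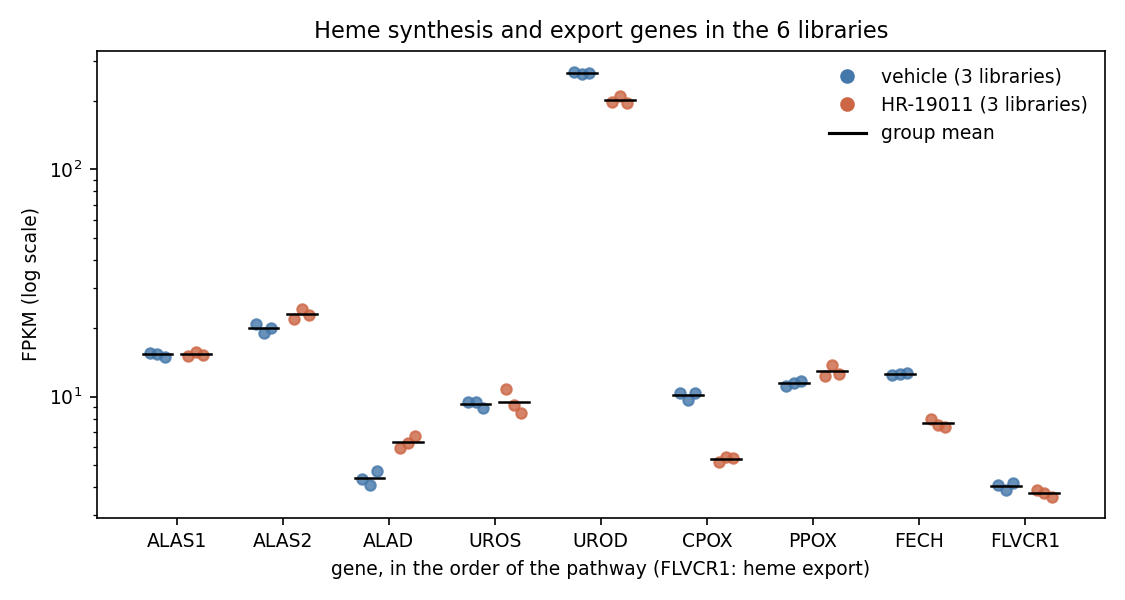
FPKM (log axis) of the 9 genes in pathway order; points are libraries, blue for vehicle and orange for HR-19011, and lines are group means. UROD stands far above the others in both groups, CPOX and FECH are lower in all 3 HR-19011 libraries, and ALAS1 values intermingle.

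Of the first step, the erythroid form was higher than the general form in every library. ALAS2 was listed at 20.9, 19.0 and 20.1 FPKM in vehicle replicates 1 to 3 and at 21.9, 24.4 and 22.9 FPKM in HR-19011. The highest vehicle library lay just under the lowest treated one, so the groups did not overlap. Its mean went from 20.01 ± 0.977 to 23.1 ± 1.28 FPKM (SD, n = 3), 15.2% higher. The log2 fold change was 0.19 (SE 0.0497, limma adjusted p = 0.00533) and turned to -0.04 (adjusted p = 0.482) after TMM scaling. ALAS1 was listed at 15.6, 15.4 and 14.9 FPKM in vehicle and at 15.1, 15.7 and 15.2 FPKM in HR-19011. These values overlap, with means of 15.3 ± 0.346 and 15.3 ± 0.327 FPKM (SD, n = 3), and the 95% interval of the log2 difference ran from -0.08 to 0.08. After TMM scaling the log2 difference of ALAS1 was -0.23 (limma adjusted p = 0.000279), and as TPM it was 0.12 (adjusted p = 0.0128).

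A ratio within a library is not changed by multiplying all values of that library by 1 factor, as TPM and TMM scaling do, though quantile normalization can change it. ALAS2 stood at 1.34, 1.23 and 1.34 times ALAS1 in vehicle and at 1.45, 1.55 and 1.51 times in HR-19011. The groups did not overlap, and the ratio was 1.15-fold higher in treated libraries, with an exact two-sided permutation p = 0.1. That is the smallest value the exact test allows with so few libraries, so no ratio here can pass a threshold of 0.05. All 5 ratios computed have an exact permutation p = 0.1, also after Benjamini-Hochberg adjustment over the 5.

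The cytosolic steps went different ways. ALAD, which joins 2 aminolevulinate molecules into the first pyrrole, was listed at 4.36, 4.10 and 4.69 FPKM in vehicle and at 5.92, 6.26 and 6.74 FPKM in HR-19011. Every treated library was above every vehicle library, and the mean was 43.8% higher. The log2 fold change was 0.44 (SE 0.0599, limma adjusted p = 0.000106). ALAD stayed higher under each of the 5 other scalings, at 0.22 to 0.60. UROS, which closes the ring into uroporphyrinogen, was listed at 9.51, 9.50 and 8.88 FPKM in vehicle and at 10.8, 9.18 and 8.49 FPKM in HR-19011. The treated libraries lay on both sides of the vehicle ones, and the 95% interval of the log2 difference ran from -0.15 to 0.19. After TMM scaling UROS was called lower, at -0.20 (limma adjusted p = 0.0332).

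UROD, which trims the side chains of uroporphyrinogen, was the most abundant of the 9 transcripts in every library. It was listed at 268, 263 and 265 FPKM in vehicle and at 197, 210 and 196 FPKM in HR-19011. The groups did not overlap, and the mean fell by 24.2%, from 265 ± 2.83 to 201 ± 7.33 FPKM (SD, n = 3), or -0.40 in log2 terms (SE 0.0298, limma adjusted p = 1.63e-06). In vehicle its level stood above that of 98.4% of tested genes. UROD alone made up 76.1% ± 0.109 of the summed FPKM of the 8 enzymes in vehicle and 71.5% ± 0.251 in HR-19011 (SD, n = 3). The sum of the 8 went from 348 ± 4.09 to 281 ± 9.25 FPKM without overlap (exact two-sided permutation p = 0.1), whereas the sum of the 7 without UROD went from 83.2 ± 1.29 to 80.0 ± 1.92 FPKM with overlapping libraries (exact two-sided permutation p = 0.2).

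Of the 3 late mitochondrial enzymes, the first and the last fell. CPOX, which makes protoporphyrinogen, was listed at 10.3, 9.71 and 10.4 FPKM in vehicle and at 5.15, 5.43 and 5.36 FPKM in HR-19011. The groups lay far apart relative to their spread, and the mean fell by 47.6%. The log2 fold change was -0.82 (SE 0.0433, limma adjusted p = 1.51e-07, and adjusted p = 0.00111 against 1.5-fold). FECH, the ferrochelatase, was listed at 12.5, 12.5 and 12.7 FPKM in vehicle and at 7.996, 7.48 and 7.38 FPKM in HR-19011. Every treated library was below every vehicle library, and the mean fell by 39.3%. The log2 fold change was -0.65 (SE 0.0406, limma adjusted p = 4.54e-07, and adjusted p = 0.181 against 1.5-fold). The mean FPKM of FECH was 1.65-fold higher in vehicle, whereas the test against 1.5-fold used log2(FPKM + 1). PPOX, which oxidises protoporphyrinogen between these 2 steps, was listed at 11.2, 11.5 and 11.7 FPKM in vehicle and at 12.4, 13.7 and 12.6 FPKM in HR-19011. Its groups did not overlap, with a log2 fold change of 0.16 (SE 0.0457, limma adjusted p = 0.0099) that was 0.08 (adjusted p = 0.126) after quantile normalization and -0.07 (adjusted p = 0.201) after TMM scaling.

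The heme exporter was the lowest of the 9 by mean in both groups. FLVCR1 was listed at 4.09, 3.88 and 4.16 FPKM in vehicle and at 3.89, 3.77 and 3.63 FPKM in HR-19011. The highest treated library lay just inside the vehicle range, and the 95% interval of the log2 difference ran from -0.19 to 0.03 (limma adjusted p = 0.136). It was lower after TMM scaling (-0.28, adjusted p = 0.000431) and after quantile normalization (-0.36, adjusted p = 6.8e-05), and 0.02 as TPM (adjusted p = 0.751).

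How the libraries are scaled therefore decides the sign of the small differences. TMM scaling moved the median difference (log2) over the tested genes by -0.21, quantile normalization by -0.12 and TPM by 0.12. The TMM factors came from all genes with nonzero values, also those below the filter, and left the median of the tested genes at -0.14. Of all called genes the higher ones made up 55.0% with FPKM as deposited, 62.2% as TPM, 46.4% once quantile-normalized and 40.9% once TMM-scaled. Measured from that median, CPOX stood at -0.89 as deposited and at -0.89, -0.93 and -0.95 under TMM, quantile normalization and TPM. FECH stood at -0.72, -0.74, -0.71 and -0.76 in the same order, and UROD at -0.47, -0.50, -0.24 and -0.47. ALAD stood at 0.37, 0.38, 0.28 and 0.41, and ALAS2 at 0.12, 0.10, 0.31 and 0.13.

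**Figure D2:**
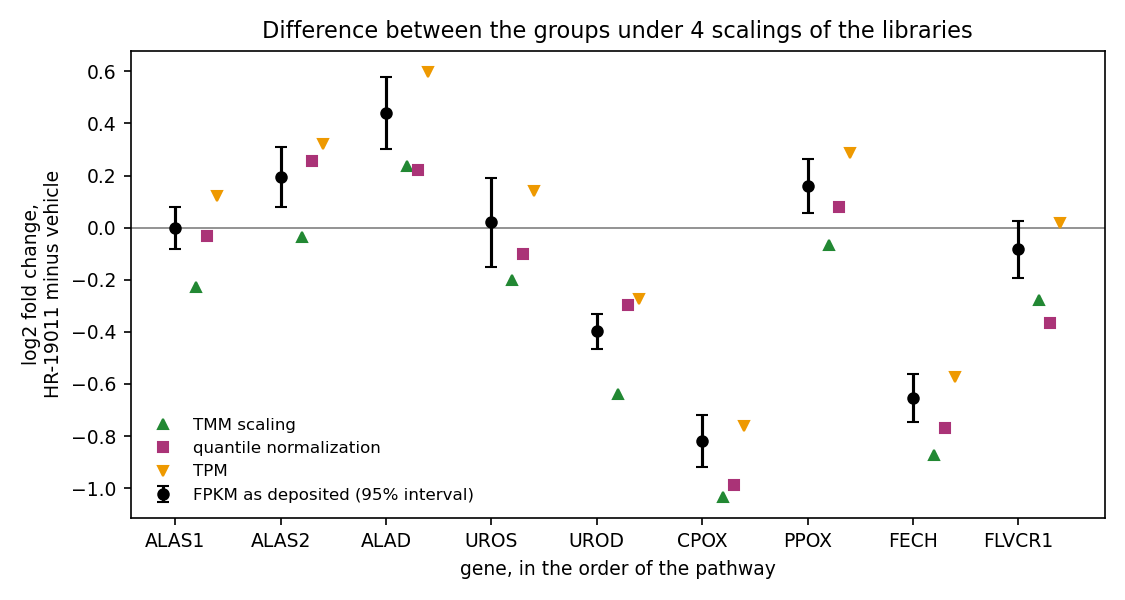
Log2 fold change of each gene, HR-19011 minus vehicle, in pathway order; black points with 95% intervals are FPKM as deposited, coloured symbols are other scalings. UROD, CPOX and FECH lie below 0 and ALAD above it under all 4, whereas ALAS2 and PPOX lie above 0 except after TMM scaling, and ALAS1, UROS and FLVCR1 change sign between scalings.

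Ratios within a library set the ends of the pathway against each other. ALAS1 and ALAS2 together stood at 2.93, 2.74 and 2.76 times FECH in vehicle and at 4.62, 5.36 and 5.16 times in HR-19011, 1.79-fold higher without overlap (exact permutation p = 0.1). The geometric mean of CPOX, PPOX and FECH was 0.506, 0.516 and 0.519 of that of ALAD, UROS and UROD in vehicle and 0.343, 0.359 and 0.355 in HR-19011. The groups did not overlap (exact permutation p = 0.1), although PPOX was not among the genes that fell and UROD was. FECH stood at 3.04, 3.23 and 3.04 times FLVCR1 in vehicle and at 2.06, 1.99 and 2.03 times in HR-19011, 1.53-fold lower (exact permutation p = 0.1).

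Gamma globin, whose protein carries heme, was set against the enzymes in the same way. Its near-identical genes were summed, since their reads may be split uncertainly. HBG1 fell by 60.8% and HBG2 fell by 57.0%, while the sum of the 8 enzymes, most of it UROD, was also lower in HR-19011, by a smaller share. The 8 enzymes together stood at 0.0448, 0.0448 and 0.0454 of the summed HBG1 and HBG2 in vehicle and at 0.0876, 0.0886 and 0.0877 in HR-19011. The ratio was 1.95-fold higher in treated libraries without overlap (exact permutation p = 0.1).

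**Figure D3:**
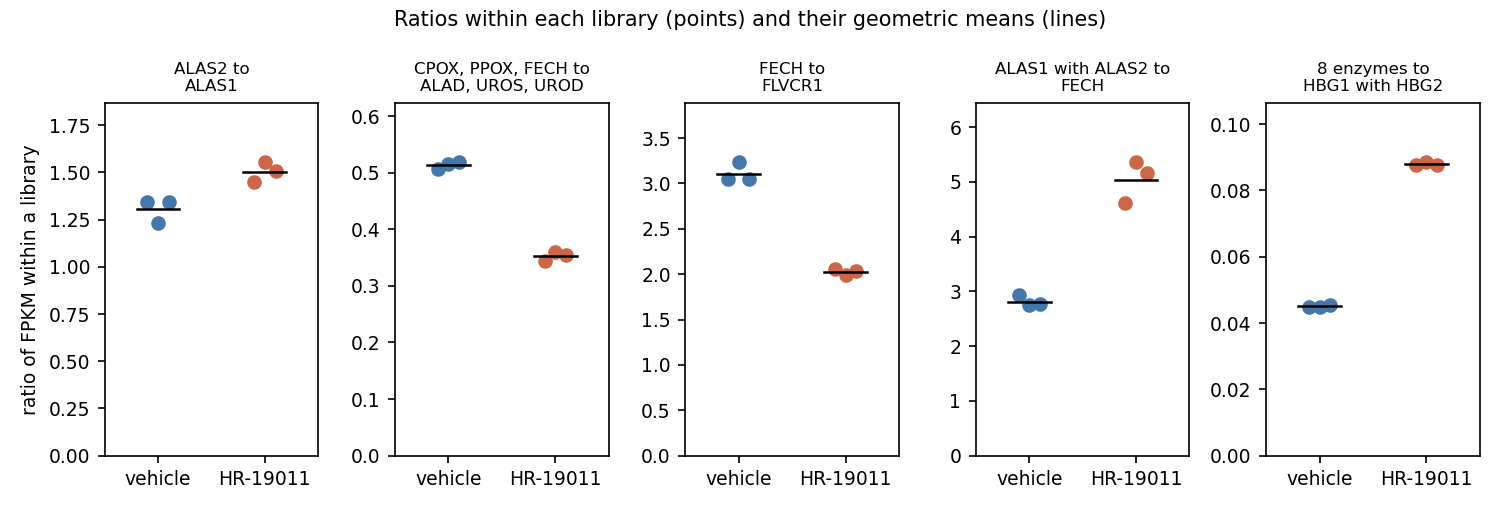
Ratio of FPKM within each library (points, linear axes from 0) for the 5 gene pairs or groups, with geometric means as lines. In each panel the 3 HR-19011 libraries (orange) lie apart from the 3 vehicle libraries (blue): higher for ALAS2 to ALAS1, both ALAS to FECH, and the enzymes to gamma globin, lower for the other two.

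The order of the levels also differed. In vehicle it ran from UROD through ALAS2, ALAS1, FECH, PPOX, CPOX, UROS and ALAD to FLVCR1, and only the ranges of ALAD and FLVCR1 overlapped between neighbours. In HR-19011 it ran from UROD through ALAS2, ALAS1, PPOX, UROS, FECH, ALAD and CPOX to FLVCR1, with no overlap between neighbours. CPOX went from rank 6 to rank 8 and FECH from rank 4 to rank 6, while ALAD went from rank 8 to rank 7. Within groups the spread was smallest for FECH in vehicle, 0.871% of its mean (SD), and largest for UROS in HR-19011, 12.3%, where replicate 1 was the high library.

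Some of these genes share ground with others. PPOX overlaps B4GALT3, and ALAS2 overlaps APEX2 and PAGE2B in the RefSeq annotation. The UROS span holds the microRNA gene MIR4484. The library kit kept strand, but no source used here says whether counting used it, so the values of ALAS2, PPOX and UROS are uncertain to that extent. B4GALT3, a galactosyltransferase gene, was listed at 36.4 to 37.6 FPKM in vehicle and 28.1 to 29.4 FPKM in HR-19011, and APEX2, a DNA repair nuclease gene, at 12.3 to 12.9 and 8.99 to 9.19 FPKM. PAGE2B was listed at 1.30 to 1.93 FPKM in vehicle and 2.37 to 3.00 FPKM in HR-19011. FECHP1, a pseudogene copy of FECH, was listed at 0 in every library.

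On GRCh38, ALAS1 (gene identifier 211) lies on chromosome 3 from 52198083 to 52214327, and ALAS2 (212) on chromosome X from 55009055 to 55030977. ALAD (210) lies on chromosome 9 from 113386312 to 113401284, UROS (7390) on chromosome 10 from 125784980 to 125823258, and UROD (7389) on chromosome 1 from 45012254 to 45015575. CPOX (1371) lies on chromosome 3 from 98570488 to 98593611, PPOX (5498) on chromosome 1 from 161165728 to 161178013, FECH (2235) on chromosome 18 from 57544377 to 57586702, and FLVCR1 (28982) on chromosome 1 from 212858275 to 212899363.

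Transport around the mitochondrial steps was mostly lower. Of 10 genes for moving substrates, intermediates and iron across the mitochondrial membranes, 9 were tested, 2 were higher and 7 lower, with a median log2 fold change of -0.24. Of all tested genes 46.4% were higher and 38.0% lower. Among the lower ones of this list, SLC25A37 (-0.087) and TSPO (-0.096) were not called as TPM, at 0.035 and 0.025. SLC25A39, a mitochondrial glutathione carrier needed for heme synthesis, was listed at 129, 134 and 137 FPKM in vehicle and at 71.0, 77.2 and 77.1 FPKM in HR-19011. SLC25A38, which brings glycine into the mitochondrion for the ALAS reaction, was listed at 25.2, 25.1 and 24.8 FPKM in vehicle and at 18.6, 16.8 and 17.3 FPKM in HR-19011. The groups of both carriers were far apart, with log2 fold changes of -0.82 (limma adjusted p = 7.42e-08) and -0.49 (adjusted p = 3.15e-06). ABCB6, a porphyrin transporter, had a log2 fold change of 0.32 (SE 0.0437) that was 0.10 and no longer called after TMM scaling. TMEM14C, which brings protoporphyrinogen into the mitochondrial matrix, had a log2 fold change of 0.076 (limma adjusted p = 0.0362) that turned to -0.16 after TMM scaling (adjusted p = 0.000451). As TPM (0.20) and after quantile normalization (0.24) TMEM14C was called higher. With equal totals without globin and mitochondrial genes (0.07) it was not called. FLVCR2, a relative of FLVCR1, was at 0 in each vehicle library and at no more than 0.0237 FPKM in HR-19011, and was not tested.

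The list for substrate supply and turnover of the ALAS enzymes split. Of 8 genes, 7 were tested, 2 were higher and 5 lower, with a median of -0.25, beside 46.4% higher and 38.0% lower of all tested genes. SHMT2, which makes mitochondrial glycine from serine, went from 83.8 ± 3.44 to 193 ± 3.07 FPKM (SD, n = 3), and LONP1, a matrix protease that degrades ALAS1, from 73.7 ± 2.94 to 131 ± 6.20 FPKM. Both are high in every treated library, with log2 fold changes of 1.19 and 0.82. SUCLA2 and SUCLG1, subunits of the ligase that forms or uses succinyl-CoA, had log2 fold changes of -0.55 and -0.47. GLDC was listed at no more than 0.0139 FPKM and was not tested.

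Known regulators included the most strongly lowered genes of the 4 lists. Of 11 genes, 10 were tested, 3 were higher and 6 lower, with a median of -0.29, beside 46.4% higher and 38.0% lower of all tested genes. The erythroid activator gene KLF1 was listed at 75.8, 81.5 and 82.3 FPKM in vehicle and at 11.5, 11.6 and 11.2 FPKM in HR-19011, and NFE2 at 114, 115 and 114 against 20.6, 21.7 and 19.0 FPKM. KLF1 fell by 85.7% and NFE2 fell by 82.1%. BACH1, a repressor that heme inactivates, went from 9.29 ± 0.169 to 18.4 ± 0.236 FPKM (SD, n = 3), with a log2 fold change of 0.91. PPARGC1B, a coactivator, had a log2 fold change of 0.19 that turned to -0.02 after TMM scaling. PPARGC1A was listed at no more than 0.0222 FPKM and was not tested.

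A few more regulators are given, chosen after their values were seen: GATA1, NRF1, IREB2 and ACO1 because printed elements bear on them, and EIF2AK1 because the series title names its product. TAL1 is given as an erythroid factor of the list that was not called as deposited. GATA1, the erythroid GATA factor, was listed at 140, 141 and 142 FPKM in vehicle and at 73.0, 73.3 and 73.1 FPKM in HR-19011. TAL1 went from 31.3 ± 0.858 to 32.0 ± 1.43 FPKM (SD, n = 3, limma adjusted p = 0.474). It was called lower after TMM scaling (-0.20) and higher as TPM and after quantile normalization (0.15 in each). NRF1 went from 8.06 ± 0.197 to 5.21 ± 0.188 FPKM (SD, n = 3), beside the ALAS1 values that overlapped. Of the genes for the iron-regulatory proteins that bind the ALAS2 element, IREB2 fell by 23.1% and ACO1 fell by 16.1%, and both were lower under each of the 5 other scalings. EIF2AK1, the heme-sensing kinase gene, had a log2 fold change of 0.13 (limma adjusted p = 0.00251) that turned to -0.10 after TMM scaling. Under each of the remaining scalings EIF2AK1 was called higher, at 0.13 to 0.29.

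**Figure D4:**
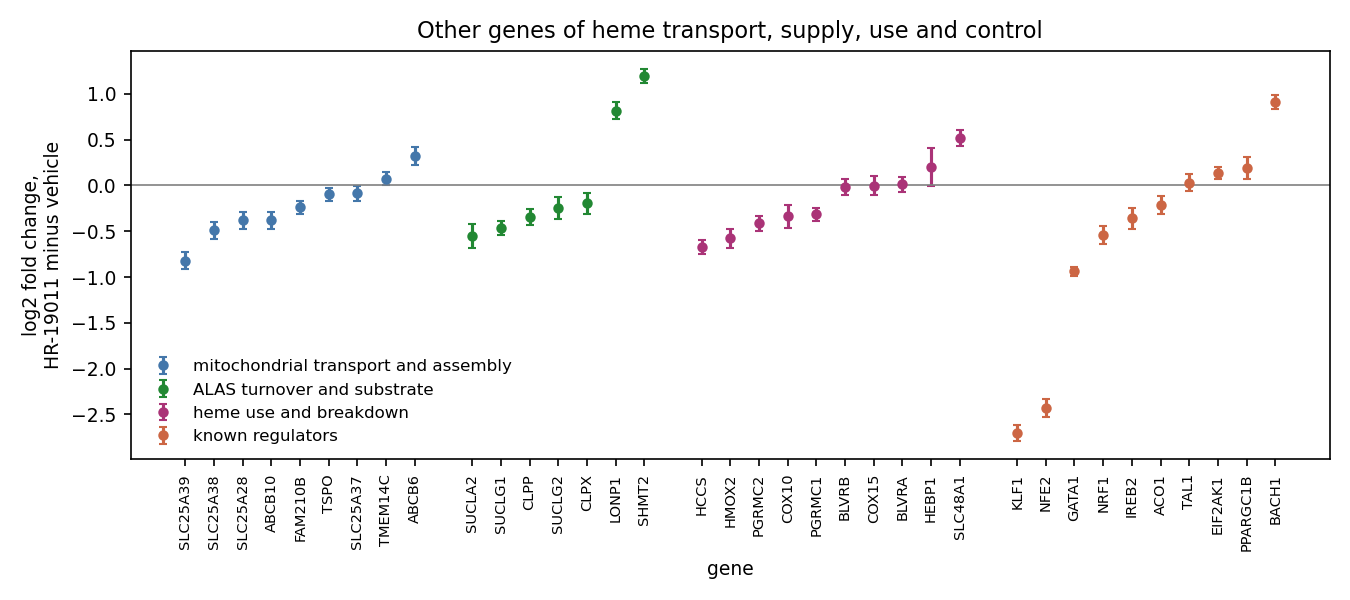
Log2 fold change, HR-19011 minus vehicle, of the 36 tested genes of the 4 other lists, with 95% intervals; colours mark the lists and genes are sorted within each. KLF1 and NFE2 lie lowest, SHMT2 highest, and 23 genes are lower and 8 higher as deposited. After TMM scaling 29 are lower and 4 higher, and as TPM 20 are lower and 12 higher.

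Over the 4 lists, 36 of 41 genes were tested, 8 were higher and 23 lower, beside the 46.4% and 38.0% of all tested genes. Profiles most like those of the first enzyme were sought among 8082 genes averaging at least 5 FPKM, by Euclidean distance of mean-centred log2(FPKM + 1) over the 6 libraries. Nearest to ALAS1 were ATPAF2, SDF2 and TET3, at distances of 0.037 to 0.0445. Nearest to ALAS2 were ATF2, NARS1 and MED21, at 0.0492 to 0.0667.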

How the data were processed

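FPKM per gene was measured in 6 libraries of K562 RNA. Per the file headers, the deposited values are FPKM, scaled by the authors for gene length and sequencing yield. Tools in the submitters' processing notes, without roles, are StringTie 2.1.3b, DESeq2 1.24.0, HISAT2 2.1.0, HISAT, SAMtools 1.9, Bowtie2 and Trimmomatic 0.38, with the build GRCh38. How reads shared by several genes were divided is not stated there. Low values of 7434 single-exon genes showed no read unit, so depth is unknown. At the best of many steps tried, 23.3% to 26.5% lay within 0.1 of a whole multiple. By chance 20% would at 1 fixed step, and more at the best of many. At most 0.0244% of non-zero values were identical in any pair of libraries.

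Groups came from the titles. Genes averaging 1 FPKM or more entered limma 3.58.1 (R 4.3.3) as log2(FPKM + 1) (group as the only term, variance trend, two-sided, Benjamini-Hochberg over all tested genes, threshold 0.05). Such fold changes understate those of low genes. Within-library ratios used FPKM without a pseudocount. The fit was tested on simulated data of 11856 genes, with 50 genes changed at each fold. It recovered 84%, 82%, 98% and 96% of those changed 1.25-, 1.5-, 2- and 4-fold, and called 9 of 11656 unchanged genes. Far fewer genes were changed there than were called in the real data. The members and lists were chosen with earlier results of these data known. Some genes of the lists are not reported here and enter no list count. Named are all 9 members, up to 2 called genes per list and direction with the largest change, genes of a list below the filter, and the 3 nearest profiles of ALAS1 and ALAS2. GATA1, NRF1, IREB2, ACO1, EIF2AK1, TAL1, SLC25A37 and TSPO were added outside that rule. The alternatives were other pseudocounts, filters, scalings and thresholds, no variance trend, a replicate block, a test against 1.5-fold and each library left out. TMM factors were computed on FPKM shares, not counts, over genes with a nonzero value in the library and in vehicle replicate 1. At each end 30% of log ratios and 5% of mean logs were trimmed, with no weights and no filter on level.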

Additional observations from a re-analysis of the deposited data

How the results depend on the processing

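UROD, CPOX and FECH stayed lower and ALAD higher, by sign, under every alternative run for them, with log2 fold changes of -0.64 to -0.28, -1.03 to -0.55, -0.87 to -0.48 and 0.22 to 0.60. TMM scaling left 1 of the 9 genes higher and 6 lower, and gave ALAS1 -0.23, ALAS2 -0.037, UROS -0.20 and PPOX -0.065. Of the other lists, 4 genes were higher and 29 lower after TMM scaling, and 12 higher and 20 lower as TPM. TPM gave FLVCR1 0.018, quantile normalization gave ALAS1 -0.032 and UROS -0.10, and equal totals without globin and mitochondrial genes gave ALAS1 -0.0072. Against 1.5-fold, 3716 of all tested genes were called (2201 higher, 1515 lower), with 0 of the 9 genes higher and 1 lower, and 3 higher and 4 lower in the other lists. The number of genes called higher was 8828 without a filter and 3347 among genes averaging 5 FPKM or more, as more or fewer genes were tested.

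With each library left out in turn, the calls among the 9 genes stayed at 3 higher and 3 lower, while 9686 to 9822 genes were called in all. ALAS1 ranged from -0.017 to 0.012 and UROS from -0.066 to 0.089. Libraries with the same replicate number showed no likeness across the 2 groups. Correlations of same-numbered deviations were -0.034, -0.0045 and -0.108, and 0 of 3 vehicle libraries correlated best with their own number. With so few libraries a weak shared batch could be missed. With the replicate block 9880 genes were called, against 10009 without, and the 9 genes kept 3 higher and 3 lower calls. The 5 ratios kept their direction with a pseudocount of 1 and with each library left out. Their p of 0.1 is the smallest that 3 against 3 allows, and FPKM without counts gives no counting error for any value.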

Other observations

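Genes that use or break down heme were lower or not called, apart from SLC48A1. Of 12 such genes, 10 were tested, 1 was higher, 5 were lower and 4 were not called, with a median log2 fold change of -0.17. Over all tested genes 84.4% were called, 46.4% higher and 38.0% lower. HCCS, which attaches heme to cytochrome c, was listed at 24.6, 24.8 and 24.5 FPKM in vehicle and at 14.6, 15.4 and 15.4 FPKM in HR-19011, and fell by 38.7%. HMOX2, the constitutive heme oxygenase, was listed at 27.2, 30.2 and 29.2 FPKM in vehicle and at 19.9, 18.4 and 18.6 FPKM in HR-19011, and fell by 34.2%. SLC48A1, which releases heme from lysosomes, rose from 12.4 ± 0.388 to 18.2 ± 0.323 FPKM (SD, n = 3), and stayed higher under each of the 5 other scalings. HMOX1, the inducible heme oxygenase, was listed at 0 in 5 of 6 libraries and ABCG2, an exporter of heme and porphyrins, at no more than 0.0298 FPKM, so neither was tested.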
